A study of Mus musculus with 10 samples.

Results

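The genes described here encode the enzymes that make and break down prostaglandins and the receptors that read them. The 10 genes (Pla2g4a, Ptgs1, Ptgs2, Ptgis, Ptges, Ptgds, Ptger2, Ptger4, Ptgfr and Hpgd) were selected on their TAB over sham values in these samples, together with their place in the pathway, so that contrast is given for them as a description without a test. They were taken by gene symbol and carry 15 of the 22790 probes with a symbol. All 10 were found by the scanner software on at least 5 of the 10 arrays, as were 12924 of the 19942 gene symbols measured. Ptgs2 reached that number through the TAB arrays only, and Ptgfr reached exactly 5.

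RNA came from the left ventricle of male C57BL/6J mice that were 8 weeks old at operation. The TAB group had transverse aortic banding, a constriction of the aorta that raises the pressure against which the left ventricle pumps. The sham group had a sham operation in place of the banding. A TAB and a sham sample were taken on each of days 3, 5, 7, 14 and 28, which gives 5 samples of each operation, and 1 of the labels of the day 14 TAB sample reads day 15. How many mice went into a sample is not given in the sources used here, so a spread over the 5 days of an operation holds time, animals and array noise together.

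Phospholipase A2 frees arachidonic acid from membranes, and a cyclooxygenase turns it into the unstable prostaglandin H2. Terminal synthases then make prostacyclin, prostaglandin E2 or prostaglandin D2, which leave the cell and act through G protein-coupled receptors on nearby cells until they are taken up and oxidised. In the heart and its vessels prostacyclin is known as a vasodilator that restrains platelets, and the inducible cyclooxygenase is known as an early response gene of injured and inflamed tissue.

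The promoter letters of Ptgs2, Pla2g4a and Ptgs1 are shown because Ptgs2 and Pla2g4a were higher in TAB on all 5 days and are neighbours on chromosome 1, with 0 protein-coding genes between them, whereas Ptgs1 encodes the other cyclooxygenase and lies on chromosome 2. The windows are from RefSeq on GRCm38.p6 and run from 250 bases before the gene start to 50 after it, 5′ to 3′ on the gene's own strand. They are chr1:150099781-150100080 on the plus strand for Ptgs2, chr1:149961241-149961540 on the minus strand for Pla2g4a (the upstream of the pair of windows listed for it) and chr2:36230176-36230475 on the plus strand for Ptgs1. Capitals mark matches to the motifs searched.
Ptgs2: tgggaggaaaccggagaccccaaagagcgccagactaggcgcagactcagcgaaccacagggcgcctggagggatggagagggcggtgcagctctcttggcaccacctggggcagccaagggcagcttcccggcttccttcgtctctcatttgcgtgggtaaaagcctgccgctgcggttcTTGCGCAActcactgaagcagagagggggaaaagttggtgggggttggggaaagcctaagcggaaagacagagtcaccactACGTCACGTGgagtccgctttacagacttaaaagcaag
Pla2g4a: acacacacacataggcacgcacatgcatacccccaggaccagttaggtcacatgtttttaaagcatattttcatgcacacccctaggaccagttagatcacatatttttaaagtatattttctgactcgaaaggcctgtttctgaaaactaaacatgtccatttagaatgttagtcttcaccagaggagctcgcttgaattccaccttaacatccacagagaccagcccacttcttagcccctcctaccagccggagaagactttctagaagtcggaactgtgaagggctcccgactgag
Ptgs1: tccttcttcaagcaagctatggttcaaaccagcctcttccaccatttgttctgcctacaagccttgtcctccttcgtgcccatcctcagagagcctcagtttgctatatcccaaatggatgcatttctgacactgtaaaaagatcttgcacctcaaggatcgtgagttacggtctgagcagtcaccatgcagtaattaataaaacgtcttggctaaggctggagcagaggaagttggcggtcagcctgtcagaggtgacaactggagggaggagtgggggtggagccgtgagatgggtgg

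The 6 motifs, searched on both strands, were the CRE core TGACGT, the E-box CACGTG, the C/EBP motif TTNNGCAA, the AP-1 motif TGANTCA, the NF-kB motif and the TATA motif TATAAA. The Ptgs2 window held the CRE core at its bases 263 to 268, read on the opposite strand, overlapping an E-box at bases 267 to 272, and a C/EBP match at bases 182 to 189. Of 32851 promoter windows, 7.51% held the CRE core, 7.15% the E-box, 10.8% the C/EBP motif, 7.81% the AP-1 motif, 20.7% the NF-kB motif and 13.6% the TATA motif. The Pla2g4a window shown and the Ptgs1 window held none of the 6. Of the 9 genes with a window, 5 had a match, and the other matches were TATA in the other Pla2g4a window and in Hpgd, AP-1 in Ptgds and C/EBP in Ptger2. A match is a description of letters and not of binding.

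Ptgs2, Pla2g4a and Ptgis were higher in every TAB sample than in any sham sample. These encode the inducible cyclooxygenase, a phospholipase that frees arachidonic acid and the prostacyclin synthase. No gene of the 10 was lower in every TAB sample, and the other 7 overlapped. Among all 12924 genes tested, 11.7% had all TAB values above all sham values and 9.32% had all below. Since the genes were picked on this contrast, the share among them is not read against these percentages. Values below are normalized intensity, the array brightness after scaling and quantile normalization, and a log2 ratio is TAB over sham of the same day.

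**Figure D1:**
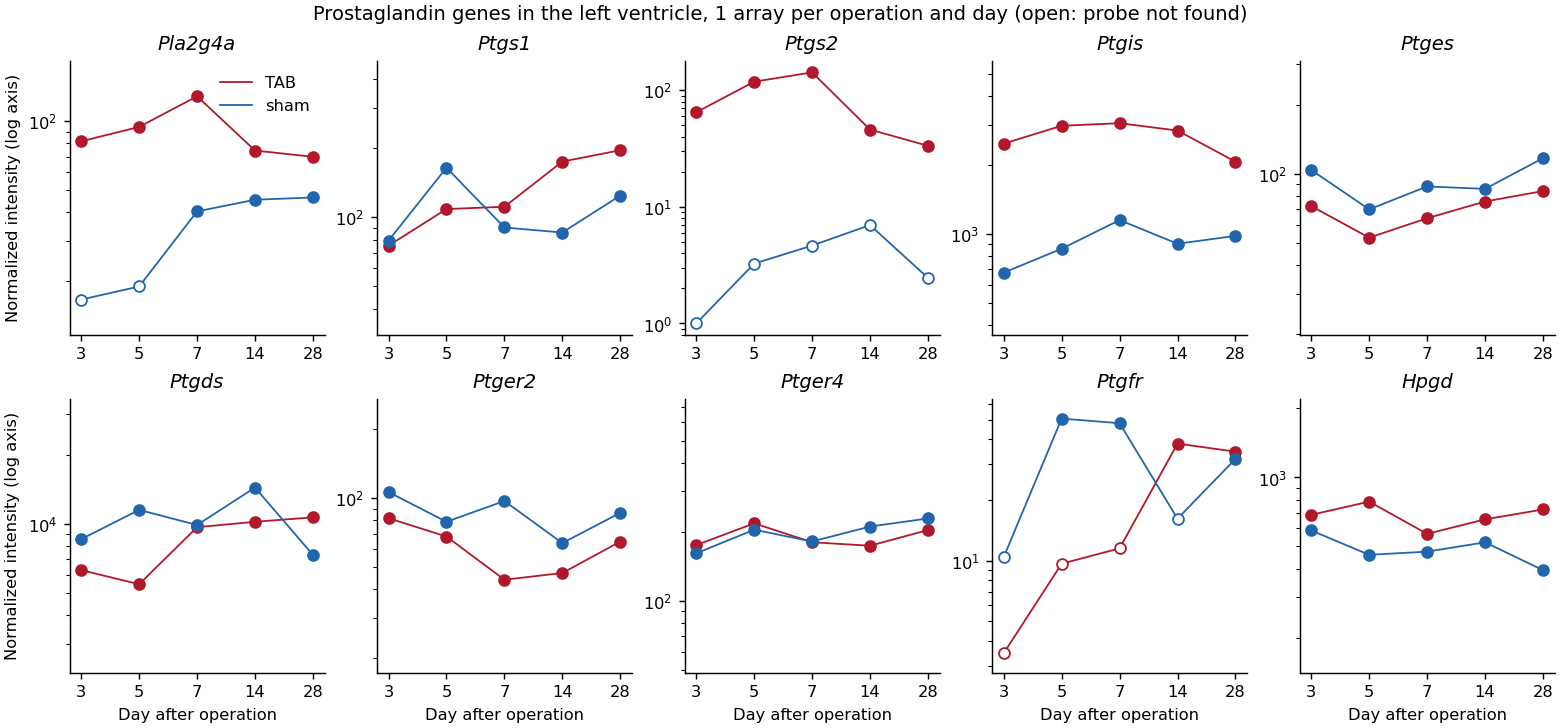
Normalized intensity on a log axis against the day after operation for the 10 genes, with 1 point per sample, TAB in red and sham in blue, and an open point where the probe was not found. The TAB points of Pla2g4a, Ptgs2 and Ptgis lie above all their sham points, and the Ptgfr lines cross between days 7 and 14.

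Pla2g4a encodes cytosolic phospholipase A2, which releases arachidonic acid for the cyclooxygenases. Its normalized intensity in TAB was 81.8, 94.5, 128.5, 74.5 and 70.0 on days 3, 5, 7, 14 and 28, against 16.7, 19.02, 40.4, 45.5 and 46.5 in sham. The TAB values were highest on day 7 and the sham values were lower on days 3 and 5, where the probe was not found in sham. The log2 ratio was 2.29, 2.31, 1.67, 0.71 and 0.59 on the 5 days, with a mean of 1.52 ± 0.83 (SD, n = 5 days) or 2.86-fold. The first pair of ratios rests on spots that were not found and shrinks when dim values are raised, with a mean log2 ratio between 0.75 and 1.75 over the alternatives tried.

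Ptgs2 encodes the inducible cyclooxygenase and was found on all 5 TAB arrays and on 0 sham arrays. Its deposited raw intensity in TAB was 48, 123, 142, 42 and 42 on days 3, 5, 7, 14 and 28, against 1, 3, 4, 7 and 3 in sham. The sham spots were as dim as spots that were not found, whose median was 5.0 on every array, while the TAB spots exceeded the 1st percentile of found spots, which was 25 to 27. They stayed below the median of found spots, between 164.0 and 222.0, so Ptgs2 was a dim spot also after banding. The deposited detection p-value, whose computation is not stated, was between 0.524 and 1.0 for the Ptgs2 probe on the TAB arrays. On the same arrays it was also at least 0.5999 for Pla2g4a, 0.760 for Ptges, 0.784 for Ptger2 and 0.917 for Ptgfr, while it was at most 0.00347 for Ptgis, Ptgds and the brighter Hpgd probe.

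**Figure D2:**
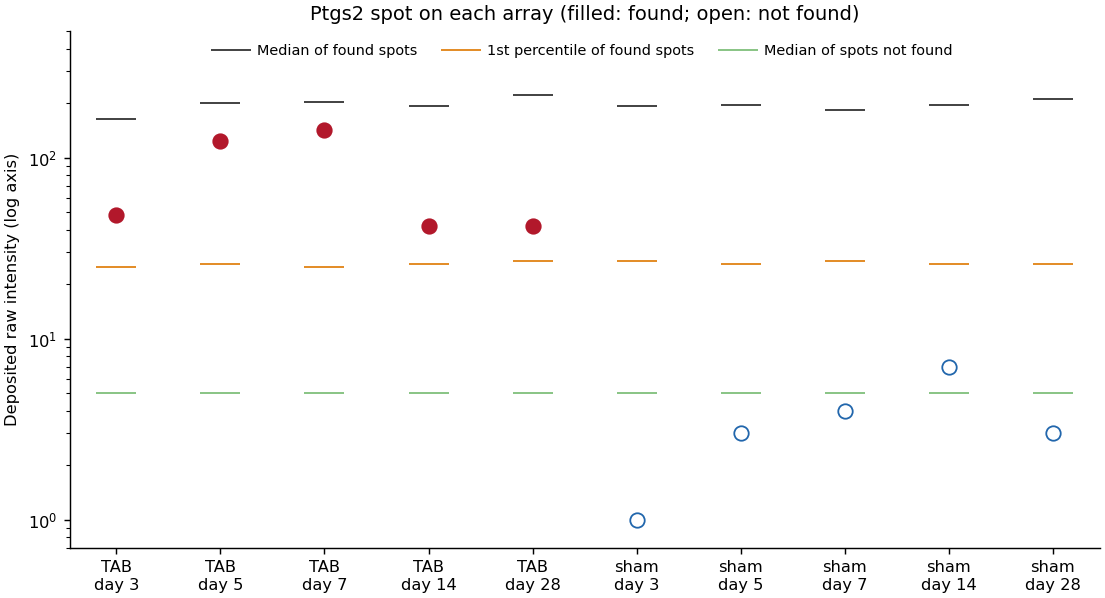
Deposited raw intensity of the Ptgs2 spot on a log axis for each of the 10 arrays, filled where found and open where not, with bars for the median of found spots, the 1st percentile of found spots and the median of spots not found on that array. The 5 TAB points lie between 42 and 142, above the 1st percentile of found spots, and the 5 sham points lie between 1 and 7.

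After normalization Ptgs2 was 64.9, 118.8, 142.8, 46.1 and 33.5 in TAB on the 5 days, against 1.0, 3.3, 4.7, 7.0 and 2.5 in sham. The TAB values of days 5 and 7 were the highest and those of days 14 and 28 the lowest, and each exceeded every sham value. Since no sham array found the probe, the fold is a lower bound. As a mean on the log2 scale over the 5 days, TAB was at least 8.79-fold higher with the lowest found spot of each array as the floor. By day this bound was 10.7, 18.3, 9.99, 6.6 and 4.06 on days 3, 5, 7, 14 and 28. That floor is no strict detection limit, since the day 14 sham spot was not found at raw intensity 7 while the lowest found spot there was 6. With the 1st percentile of found spots as the floor, chosen after the data were seen, the mean bound was 2.87-fold. The mean log2 ratio of the normalized values, 4.53 ± 1.29 (SD, n = 5 days), takes the not found spots at face value and is no measure of the fold.

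Ptgs1 encodes the constitutive cyclooxygenase. In TAB it was 75.3, 108.8, 111.3, 175.2 and 196.4 on the 5 days, and in sham 79.2, 164.8, 90.4, 85.9 and 124.6. TAB was below sham on days 3 and 5 and above it on days 7, 14 and 28, and the groups overlapped. The log2 ratio ranged from -0.60 on day 5 to 1.03 on day 14, with a mean of 0.26 ± 0.63 (SD, n = 5 days). The mean was 0.07 without day 14, 0.16 without day 28 and 0.48 without day 5.

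Ptgis encodes prostacyclin synthase. Its normalized intensity in TAB was 2476, 2962, 3039, 2823 and 2065 on the 5 days, against 678, 861, 1149, 906 and 980 in sham. The lowest TAB sample, day 28, was above the highest sham sample, day 7, and the probe was found on all 10 arrays with deposited detection p-values of at most 0.00136. The log2 ratio was 1.87, 1.78, 1.40, 1.64 and 1.08, with a mean of 1.55 ± 0.32 (SD, n = 5 days) or 2.94-fold. It was the steadiest of the 3 separated genes across the days, and its mean log2 ratio lay between 1.48 and 1.67 under every alternative tried.

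Ptges encodes the inducible microsomal prostaglandin E synthase. It was lower in TAB on each of the 5 days, at 72.2, 52.6, 64.0, 75.7 and 84.0 against 103.8, 69.9, 88.0, 85.9 and 116.9 in sham. The differences were small, with a mean log2 ratio of -0.41 ± 0.13 (SD, n = 5 days), and the groups overlapped through the day 5 sham sample. Without day 5 every TAB value of Ptges was below every sham value.

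Ptgds encodes the lipocalin-type prostaglandin D synthase. It was 6283, 5453, 9668, 10213 and 10672 in TAB and 8576, 11503, 9884, 14400 and 7318 in sham. TAB was lower on days 3, 5, 7 and 14 and higher on day 28, with log2 ratios from -1.08 to 0.54 and a mean of -0.30 ± 0.60 (SD, n = 5 days). The mean was -0.11 without day 5 and -0.51 without day 28. The sham samples alone spanned the TAB samples of days 7, 14 and 28.

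**Figure D3:**
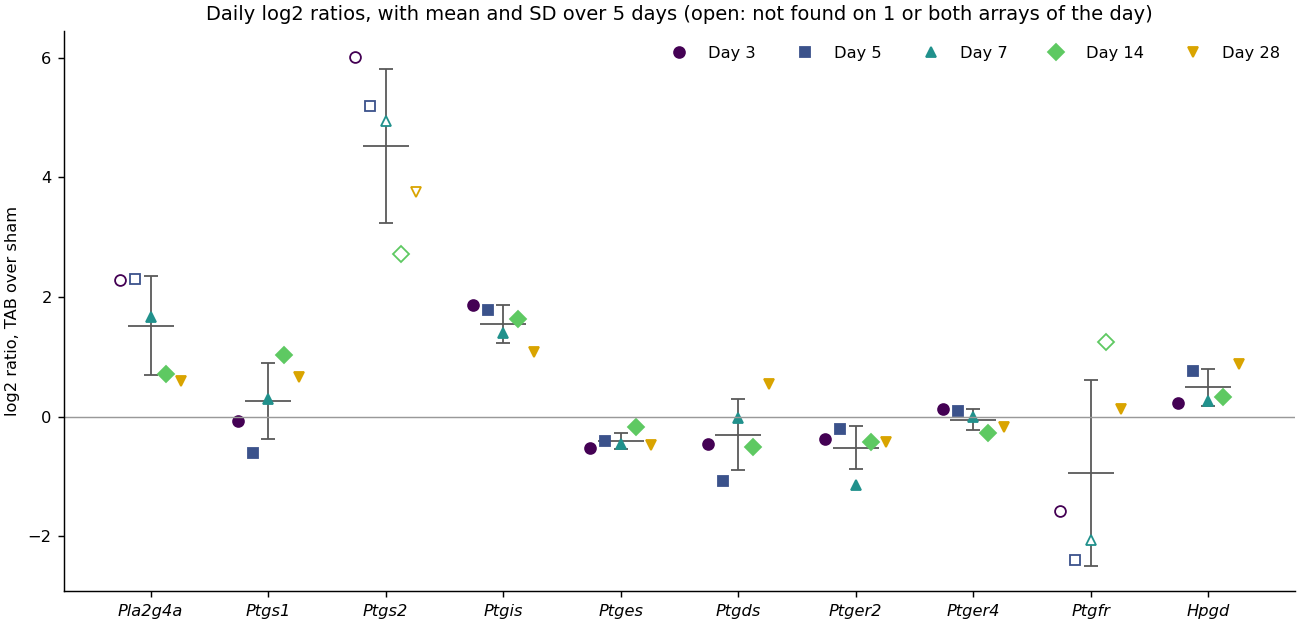
Log2 ratio of TAB over sham for each of the 10 genes, with 1 marker per day, an open marker where the probe was not found on 1 or both arrays of the day, and bars for the mean and SD over the 5 days. All markers of Pla2g4a, Ptgs2, Ptgis and Hpgd lie above 0, those of Ptges and Ptger2 lie below 0, and those of Ptgfr lie below 0 on days 3, 5 and 7 and above it on days 14 and 28.

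Ptger2 and Ptger4 encode the EP2 and EP4 receptors of prostaglandin E2, which raise cyclic AMP. Ptger2 was 81.8, 68.1, 44.1, 47.2 and 64.7 in TAB against 106.4, 78.9, 97.3, 63.7 and 86.4 in sham. TAB was lower on all 5 days, most on day 7, with a mean log2 ratio of -0.52 ± 0.36 (SD, n = 5 days) and overlapping groups. A second Ptger2 probe was found on 0 arrays and had a mean log2 ratio of 1.14, so the direction turns if that probe is used or averaged in.

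Ptger4 was between 174.0 and 217.8 in TAB and between 161.2 and 228.8 in sham, with log2 ratios from -0.28 to 0.12. The TAB range lay inside the sham range. Another Ptger4 probe, also found on all 10 arrays, had log2 ratios from -0.23 to 0.78 and a mean of 0.34 ± 0.39 (SD, n = 5 days), so the pair of readable probes did not give the same sign. A further Ptger4 probe was found on 0 arrays.

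Ptgfr encodes the receptor of prostaglandin F2α. Its normalized intensity was 3.5, 9.6, 11.5, 38.0 and 34.7 in TAB and 10.4, 50.6, 48.0, 16.1 and 31.9 in sham. In TAB the probe was found on days 14 and 28, and in sham on days 5, 7 and 28. The log2 ratio was -1.58, -2.39 and -2.06 on days 3, 5 and 7 and 1.24 and 0.12 on days 14 and 28, so only the day 28 ratio rests on a pair of found spots. A second Ptgfr probe was found on 0 arrays.

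Hpgd encodes 15-hydroxyprostaglandin dehydrogenase, which inactivates prostaglandins. It was 687, 785, 568, 657 and 725 in TAB against 587, 460, 475, 521 and 394 in sham. TAB was higher on all 5 days, with a mean log2 ratio of 0.49 ± 0.31 (SD, n = 5 days) or 1.41-fold, and the groups overlapped because the day 3 sham sample exceeded the day 7 TAB sample. A second Hpgd probe, found on all 10 arrays, gave 0.45 ± 0.25 (SD, n = 5 days) and was also higher on all 5 days, with deposited detection p-values of 0.0176 to 0.138 in TAB. With median scaling in place of quantile normalization, or with each operation normalized apart, every TAB value of Hpgd was above every sham value.

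A daily criterion of the study's form was used, a log2 ratio beyond 2 SDs of the ratios on that day of all 12924 genes tested here. The cutoffs were 1.71, 1.84, 1.63, 1.35 and 1.23 on days 3, 5, 7, 14 and 28. They are not the study's own, since its gene set, normalization and choice of probe differed and its filter would drop Ptgs2. On day 3 Pla2g4a, Ptgs2 and Ptgis were beyond it on the higher side, where 4.05% of all genes were beyond it in either direction. On day 5 Pla2g4a and Ptgs2 were beyond it on the higher side and Ptgfr on the lower side (4.53% of all genes), and the same 3 genes were beyond it on day 7 (4.35%). Ptgs2 and Ptgis were beyond it on day 14 (4.11%) and Ptgs2 on day 28 (4.34%). None of Ptgs1, Ptges, Ptgds, Ptger2, Ptger4 and Hpgd was beyond it on any day. All 5 Ptgs2 values past the cutoff, those of Pla2g4a on days 3 and 5 and those of Ptgfr rest on spots that were not found in TAB or sham. The 12 values past the cutoff became 10 with dim spots raised to the 1st percentile of found spots and 9 with 50 added before log2.

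Whether the TAB effect differed between the early days (3, 5 and 7) and the late days (14 and 28) was tested with limma. The rule for the genes does not name this difference, but it is made from the same daily values, so for these genes it is no independent test. None of the 12924 genes passed at an adjusted p of 0.05 (0%), the lowest adjusted p was 0.109, and 13.2% had an unadjusted p under 0.05. Ptgs2 is left out here because all its sham spots were not found. Of the other 9 prostaglandin genes, 0 passed after adjustment, and Ptgfr, Pla2g4a and Ptgs1 had an unadjusted p under 0.05, so none of these differences is called. They are given as late minus early on the log2 scale with the 95% interval and limma adjusted p.

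The difference was 2.69 (1.67 to 3.71, adjusted p = 0.216) for Ptgfr, from a mean log2 ratio of -2.01 early to 0.68 late. It was -1.44 (-2.08 to -0.80, adjusted p = 0.268) for Pla2g4a, whose mean log2 ratio was 2.09 early and 0.65 late. It was 0.97 (0.19 to 1.74, adjusted p = 0.319) for Ptgs1. For Ptgis, the interval of the difference was -0.97 to 0.32. The Ptgfr and Pla2g4a differences rest in part on spots that were not found: with dim spots raised to the 1st percentile of found spots they were 0.93 and -1.09, and with 50 added before log2 they were 0.76 and -0.66. None of the 9 genes passed under any alternative in which it was tested.

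Genes of the same pathway outside the 10 were listed in 4 groups, and 42 of them could be tested for the TAB effect over the 5 days with limma. Of the 42, 12 were higher in TAB and 12 lower. Of all genes tested, 14.5% were higher and 14.1% lower. The lists were chosen with earlier results of these data known, so the counts are not read against these percentages. The median log2 difference of the 42 genes was -0.02, against -0.04 over all genes tested. Of the 24 calls, those of Tbxas1, Cbr3, Slco2a1, Ptgfrn, Pla2g5 and Cysltr1 held under all 17 alternatives. The 12 higher genes include Hpgds, which passed the filter on dim probes through the TAB arrays and so had to differ; without it 11 were higher. The number of calls was 10 without day 3, 12 without day 5, 9 without day 7 and 8 with no filter on dim probes. Ptgr2, Pla2g12a, Pla2g4c and Alox5, all lower in TAB, were not called with median scaling only.

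Among the other prostanoid enzymes 3 of 8 tested genes rose, 2 fell and 3 did not pass, with a median log2 difference of 0.07. Hpgds, the haematopoietic prostaglandin D synthase, is counted among those that rose and in the median. It is given as a description only, since it passed the filter on dim probes through the TAB arrays. It lay between 34.7 and 58.0 in TAB and between 11.7 and 19.3 in sham, where it was found on 1 of the 5 arrays, so its mean log2 difference depends on the dim spots. It was 1.62 as measured, 0.84 with dim spots raised to the 1st percentile of found spots and 0.56 with 50 added before log2. Tbxas1, thromboxane A synthase, rose by 1.58 ± 0.28 (SE) on the log2 scale (adjusted p = 0.0127). Cbr3, a carbonyl reductase, rose by 0.67 ± 0.10 (adjusted p = 0.00988). Cbr1, which reduces prostaglandin E2, fell by 0.53 ± 0.10 (adjusted p = 0.0133) and Ptgr2, a prostaglandin reductase, fell by 0.45 ± 0.12 (adjusted p = 0.0345). The other prostaglandin E synthases, Ptges2 and Ptges3, did not pass, at 0.01 and -0.26, nor did Prxl2b at 0.13.

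Of the other receptors and transporters 2 of 7 tested genes rose and 1 fell, with a median log2 difference of 0.09. Ptgir, the prostacyclin receptor, rose by 0.67 ± 0.17 (adjusted p = 0.0279) and was higher on 4 of 5 days. It lay between 72.8 and 112.2 in TAB and between 43.4 and 78.3 in sham. Ptgfrn, a membrane protein named as a negative regulator of the prostaglandin F2α receptor, rose by 1.32 ± 0.12 (adjusted p = 0.00408). Slco2a1, the transporter that takes prostaglandins up for breakdown, fell by 0.89 ± 0.10 (adjusted p = 0.00602), from between 418.2 and 657.0 in sham to between 202.1 and 404.2 in TAB. Abcc4, Ptgdr2, Tbxa2r and Ptger1 did not pass, at 0.21, -0.14, 0.09 and -0.07. Ptger3 and Ptgdr were found on 0 arrays.

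**Figure D4:**
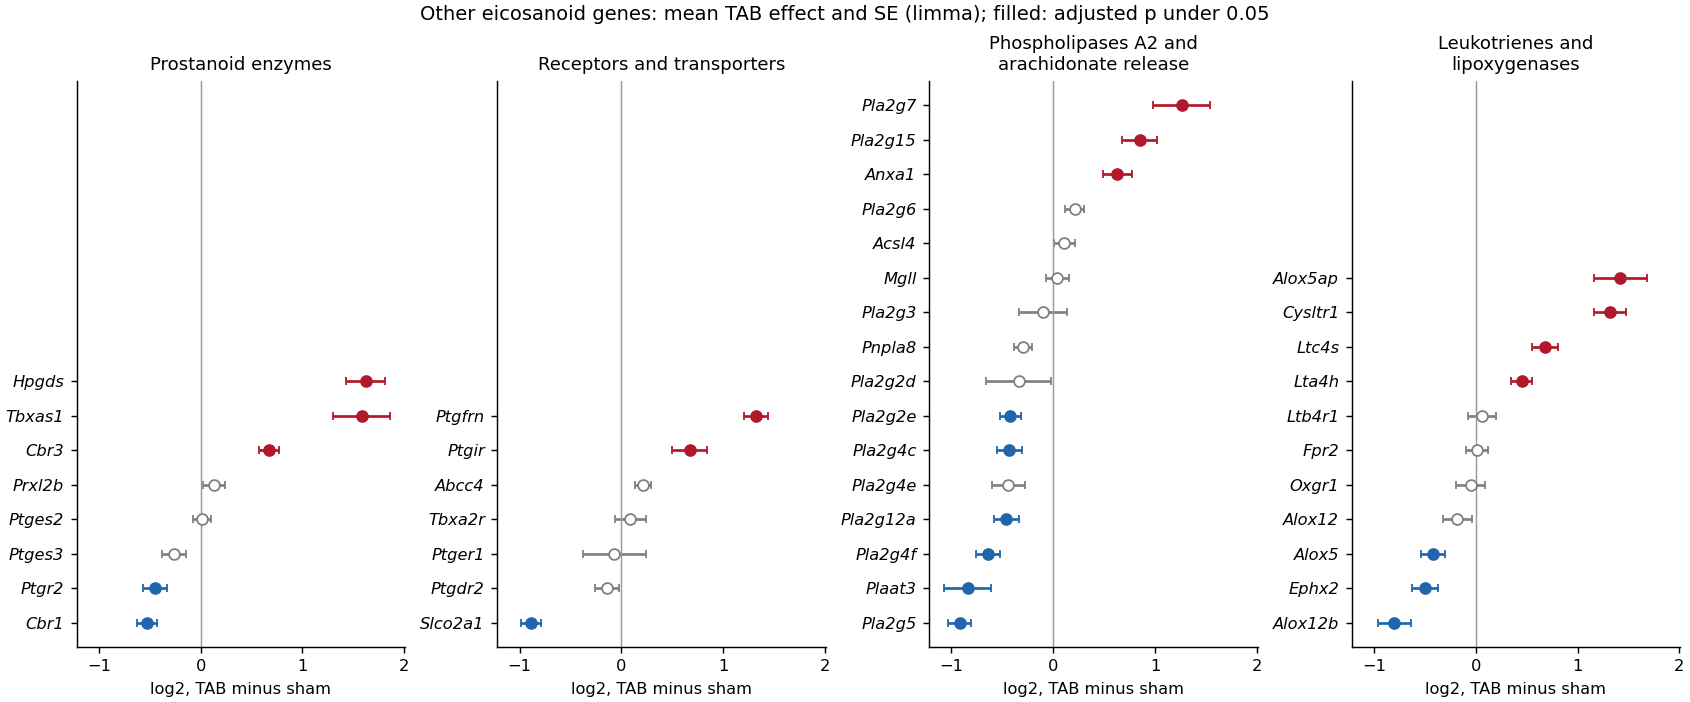
Mean log2 difference of TAB minus sham over the 5 days, with its SE from limma, for the 42 tested genes of the 4 lists outside the 10 prostaglandin genes, filled red where higher and filled blue where lower at an adjusted p under 0.05, and open otherwise. Each list holds genes on both sides of 0, with 12 filled points on each side in all.

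Of the phospholipases and other genes of arachidonate release 3 of 16 tested genes rose and 6 fell, with a median log2 difference of -0.32. Pla2g7, the platelet-activating factor acetylhydrolase, rose by 1.26 ± 0.28 (adjusted p = 0.0209), Pla2g15, a lysosomal phospholipase, by 0.85 ± 0.17 (adjusted p = 0.0163) and Anxa1, annexin A1, by 0.63 ± 0.14 (adjusted p = 0.0209). Pla2g5, a secreted phospholipase, fell by 0.92 ± 0.11 (adjusted p = 0.00615). The other 5 that fell were Plaat3, Pla2g4f, Pla2g12a, Pla2g4c and Pla2g2e, with log2 differences from -0.84 to -0.42. Pla2g4e (-0.44), Pla2g2d (-0.34), Pnpla8 (-0.30) and Pla2g6 (0.21) did not pass. Of the relatives of Pla2g4a on this list, Pla2g4c and Pla2g4f fell and Pla2g4e did not pass. Pla2g4b, found on 0 TAB and 4 sham arrays, was not tested, and no probe symbol matched Pla2g4d.

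Arachidonic acid also feeds the leukotrienes, and of the leukotriene and lipoxygenase genes 4 of 11 tested rose and 3 fell, with a median log2 difference of 0.01. Alox5ap, which presents arachidonic acid to 5-lipoxygenase, rose by 1.42 ± 0.26 (adjusted p = 0.0135), and Cysltr1, a cysteinyl leukotriene receptor, rose by 1.32 ± 0.16 (adjusted p = 0.00618). Ltc4s and Lta4h, the enzymes after 5-lipoxygenase, rose by 0.68 ± 0.13 (adjusted p = 0.0146) and 0.45 ± 0.10 (adjusted p = 0.0227). Alox5, which encodes 5-lipoxygenase itself, fell by 0.42 ± 0.12 (adjusted p = 0.0439), a call lost under 10 of the 17 alternatives. Alox12b fell by 0.80 ± 0.16 (adjusted p = 0.017) and Ephx2, soluble epoxide hydrolase, by 0.50 ± 0.13 (adjusted p = 0.0322). Alox12, Ltb4r1, Oxgr1 and Fpr2 did not pass, at -0.18, 0.06, -0.05 and 0.01.

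Of 12 cytokine, NF-kB and transcription factor genes of the signalling upstream of Ptgs2, among them the NF-kB inhibitor Nfkbia, 10 were tested with limma, with a median log2 difference of -0.07. At an adjusted p under 0.05, 0 passed as higher and 1 as lower, and at an unadjusted p under 0.05 1 was higher and 1 lower. Nfkb1 fell by 0.64 ± 0.19 (adjusted p = 0.0445). Il1b was between 60.2 and 298.6 in TAB and between 4.4 and 76.6 in sham, was higher in TAB on 5 of 5 days and did not pass (adjusted p = 0.173). Il6 was found on 3 TAB arrays and 0 sham arrays and so was not tested. Its TAB values, 8.6 to 125.4, were all above its sham values, 2.4 to 6.5.

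The ventricle is a mixture of cells, and in such bulk RNA more cells of a type and more RNA per cell cannot be told apart. All 8 cardiomyocyte markers were found on all arrays, with a summed normalized intensity of 184028 to 203895 in TAB and 191345 to 219410 in sham, and 2 of the 8 fell. Of 10 monocyte and macrophage markers 8 were tested and 8 rose, with a summed intensity of 19205, 22618, 19865, 11933 and 9473 in TAB on days 3, 5, 7, 14 and 28 and between 5526 and 6822 in sham. The summed level in TAB was thus higher on days 3 to 7 than on days 14 and 28, as were the normalized Ptgs2 and Pla2g4a values in TAB. The summed intensity of the neutrophil markers in TAB, 215, 347, 282, 142 and 115 on the same days, was also higher on days 3 to 7, and in sham it was between 64 and 180. For Pla2g4a the day 3 rank depends on the normalization. Its raw intensity in TAB was 59 on day 3, against 68 and 84 on days 14 and 28, and the day 3 TAB array had the lowest raw median (34.0). Fibroblast markers rose in 2 of 6 tested and fell in 0, and mast cell markers rose in 1 and fell in 1 of 4. None of the 2 neutrophil, 6 endothelial, 2 smooth muscle, 4 mesothelial and 2 adipocyte markers tested passed with limma (at an unadjusted p under 0.05, 1 endothelial marker was higher and 2 mesothelial markers lower). Of the markers of these 5 types too dim to test, Tagln (smooth muscle, found on 4 TAB and 0 sham arrays) and S100a8 (neutrophil, found on 0 arrays) had every TAB value above every sham value. The others measured overlapped. The fibroblast marker Col1a1 was found on 0 arrays and Pdgfra on 0 TAB arrays, and no probe symbol matched the macrophage marker Lyz2. The part of these cells in the prostaglandin gene values was not tested.

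The genes whose log2 values were most alike over the 10 samples were found by Pearson's r for Ptgis and Hpgd, which were found on all arrays. Any gene shifted by banding correlates across 5 TAB and 5 sham samples, so r is given as a description. Ptgis was most like Thbs4 (r = 0.987), Fstl1, Drd1a, F2r and Col8a1 (r = 0.980), of which Thbs4, Fstl1 and Col8a1 encode secreted or matrix proteins. Hpgd was most like Axin1 (r = 0.981), Tmem62, Atxn7l3b and Poldip3 (r = 0.931).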

How the data were processed

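mRNA of 10 left ventricle samples was read in 1 colour on Mouse Whole Genome OneArray v2 arrays. The authors deposited raw intensity for 26423 probes, with the background already subtracted and no scaling between arrays, a flag per spot and a detection p-value. The deposited p-value is described only, since its computation is not stated. A deposited flag of -50 was read, as GenePix commonly uses it, as a spot not found (40.2% to 47.3% of spots per array); what the flag means is not stated. Saturated spots were at most 0.01% of an array. The number of arrays limits the precision.

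Arrays were scaled to a common median, values under 1 were set to 1, and quantile normalization to the median of each rank and log2 followed (Python 3.11.15, numpy 2.4.6, pandas 2.3.3). The study instead removed probes with a value under 1 in any sample, which would drop Ptgs2. A gene was represented by the probe found on the most arrays, then the brightest. Genes found on at least 5 of 10 arrays were tested with limma 3.58.1 in R 4.3.3 (lmFit, eBayes, Benjamini-Hochberg) with the day as a block. The labels put 1 TAB and 1 sham sample on each day, which gives the pairing. Deviations of same-day samples correlated at r = 0.17, -0.0628, 0.00406, -0.0506 and 0.0215 from the earliest day to the latest. The same normalized tables gave each alternative setting.

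On simulated data with 200 of 12924 genes changed by 2 on the log2 scale, 92% were recovered for the TAB effect and 55.5% for the late minus early difference, with 10 and 4 false calls. The simulated noise held no day effect. The calls given for the other eicosanoid genes were all smaller than 2, and changes of that size were not simulated.

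The genes, lists and motifs were chosen with earlier results of these data known. The text names all 10 prostaglandin genes. From the 4 eicosanoid lists it names every gene that passed and, of those tested that did not, up to 4 with the largest mean log2 ratio. The inducer and cell type marker lists are given in counts with examples. For likeness it names the genes among the 5 of highest r, of which 1 for Hpgd is not reported here; Ptgs2 and Ptgfr are left out since they were found on only 5 arrays.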

Additional observations from a re-analysis of the deposited data

Results flagged for a closer look

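Ptgfr drew attention because its log2 ratio of TAB over sham was below 0 on all 3 early days (mean -2.01) and above 0 on both late days (mean 0.68), a difference of 2.69. The limma test of that difference did not pass (adjusted p = 0.216), and 4 of the 5 daily ratios rest on a spot that was not found. Of 20 sets of 5 samples (10 genes, TAB and sham), 0 held a sample set apart from the rest by Dixon's test at its 95% level, which by chance flags about 1 in 20.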

How the results depend on the processing

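Of the 17 alternatives, 13 left the count of genes called for the TAB effect (3705) within 1.5 times; it was 1129 with no filter on dim probes and between 1136 and 3893 with a day left out. The split of these calls was 1880 higher and 1825 lower, and became 2278 and 1331 with median scaling only and 2315 and 1387 with each operation normalized apart. The 24 calls among the other eicosanoid genes became 8 with no filter and 9 to 22 with a day left out, and 0 reversed. The late minus early test called 0 genes but 17 with 50 added before log2, 6 with the 1st percentile floor, 18 among genes found on all 10 arrays, 32 with trend and robust on and 0 to 102 with a day left out, the highest without day 14. Without the day as a paired block it called 6, the TAB effect 3939 and the other eicosanoid genes 22, with Alox5, Pla2g12a and Pla2g4c lost. The cause of these changes was not tested. Prostaglandin gene values past the daily cutoff numbered 12, or 20 where a 2-fold ratio in either direction was the cutoff. The separated genes numbered 3 or 4 under all 12 alternatives and always included Pla2g4a, Ptgs2 and Ptgis. The mean log2 ratio of Ptgs2 dropped to 1.22 with 50 added and 1.46 with the 1st percentile floor, and that of Ptges became -0.25 with 50 added. That of Ptger2 turned to 1.14 and 0.31, and that of Ptger4 to 0.14, with other probe rules. Spots near background limit Ptgs2, Ptgfr and the early sham values of Pla2g4a.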
